A study of Homo sapiens with 24 samples.

Results

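The 38 genes described here encode the subunits and activators of the proteasome. They were taken by symbol from a list, with symbols matched to the Ensembl gene identifiers of the count table, and all 38 were among its 19702 genes. Of the 38, 33 are constitutive members (core, cap and other activators) and 5 are the interferon-inducible members PSMB8, PSMB9, PSMB10, PSME1 and PSME2. RNA was sequenced from PC9 and H1975, lung adenocarcinoma cell lines of human origin with an activated, mutant receptor kinase EGFR, after 24 h without drug (control), with almonertinib, a covalent inhibitor of mutant EGFR, with paclitaxel, a taxane that stabilises microtubules, or with both. Single doses were 2 nM almonertinib and 0.3 nM paclitaxel for PC9, and 1 nM of either drug for H1975. The doses inside the combination are not given separately in the labels. Each of the 8 groups had 3 libraries, 24 in all. Because the doses differed between the lines, a difference between the lines is one of line and dose together. Nothing in the labels tells whether libraries of one group are separate cultures, so p-values measure the spread between libraries, which may be technical. The labels name no other cells in the cultures.

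The proteasome cuts proteins that carry ubiquitin chains into short peptides. Its core particle is a barrel of outer alpha rings (PSMA genes) and inner beta rings (PSMB genes), and PSMB5, PSMB6 and PSMB7 encode the beta subunits with a catalytic site. A regulatory cap recognises, unfolds and feeds in the substrate, with a ring of ATPases (PSMC genes) and further cap subunits (PSMD genes). Interferon induces PSMB8, PSMB9 and PSMB10, which replace PSMB5, PSMB6 and PSMB7 respectively in newly assembled cores and change the peptides made for presentation on class I molecules. PSME1 and PSME2 form an activator ring that opens the core without ATP and is also induced by interferon. PSME3 is its nuclear relative and PSME4 is a large single-chain activator.

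Library totals ran from 14232299 to 24245314 counts, and the 38 genes took between 0.56% and 0.829% of the counts of a library. Levels are in CPM, the usual scaling of counts by library size, on a TMM scale common to all libraries. A gene was called where the edgeR quasi-likelihood test gave a Benjamini-Hochberg adjusted p under 0.05 over all genes of the fit, and values after ± of a log2 fold change are approximate standard errors from that test. All treated groups of a line were compared with the same 3 control libraries, so their comparisons are not independent. In RNA from whole cultures, fewer cells of a kind and less RNA per cell cannot be told apart. 4 libraries stood apart from the others of their group: PC9 almonertinib replicate 3, H1975 control replicate 3, H1975 almonertinib replicate 1 and H1975 paclitaxel replicate 1. Main results are also given without these 4, a choice made after the data were seen. Libraries further differed in how their counts moved with transcript length and GC content. The Spearman correlation of a gene's deviation with GC content averaged 0.247 ± 0.116 (SD, n = 3) in the PC9 controls and -0.537 ± 0.097 in the PC9 paclitaxel libraries, and it was 0.496 in PC9 almonertinib replicate 3 where the other 2 libraries of that group were both below 0. Without replicate 3, the PC9 almonertinib libraries were at -0.286 and -0.285, beside 0.164 to 0.380 in the controls. In H1975 without the 4 libraries, the controls were at 0.309 and 0.412 and the almonertinib libraries at -0.629 and -0.473. The paclitaxel libraries there were at 0.0505 and 0.169, and the combination libraries at -0.183 to 0.161. In that setting the GC trend cannot be told apart from almonertinib in either line, or from paclitaxel or the combination in H1975. With all libraries, those of PC9 paclitaxel (-0.597 to -0.425) did not overlap the controls (0.164 to 0.380). Paclitaxel and the GC trend thus cannot be told apart in PC9. Proteasome transcripts are short (median 1529 bases), so the main results are also given with a per-library trend on length and GC content removed. Where a treated group differs from its controls in the trend, this step may also remove an effect of the drug, which was not tested. Markers of other cells were low: the 8 leukocyte markers summed to 5.63 to 11.2 CPM per library in PC9 and 19.9 to 29.0 CPM in H1975, with PTPRC at 0 in both control groups, while the 9 epithelial markers summed to 4549 CPM or more in every library. The fibroblast markers COL1A2 and LUM were at 0 in all 24 libraries.

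The promoters of the inducible members are shown first, since interferon acts on these genes through their promoters. RefSeq windows (GRCh38.p14, from 250 bases before a start to 50 after it) were at hand for 33 of the 38 genes, the 5 unmatched being PSMA7, PSMB1, PSMB6, PSMB7 and PSMD4. The core of the interferon-stimulated response element, the site bound by interferon regulatory factors, was searched on both strands as GAAA, any 2 bases and GAAA again. It was found for 4 of the 5 inducible members, for 2 of the 28 constitutive ones with a window (PSMA4 and PSMB4) and for 4.38% of the 27305 genes in the table. The 30-base segments around these matches are printed 5′ to 3′ on the strand of the gene, with the match in capitals. TTTC, 2 bases and TTTC is the same motif read on the opposite strand.
PSMB8 (chr6:32844032-32844061, minus strand): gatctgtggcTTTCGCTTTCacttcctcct
PSMB10 (chr16:67936852-67936881, minus strand): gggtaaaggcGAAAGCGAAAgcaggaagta
PSME1 (chr14:24136189-24136218, plus strand): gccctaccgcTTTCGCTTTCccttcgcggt
PSME2 (chr14:24146619-24146648, minus strand): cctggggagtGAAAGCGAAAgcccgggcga
PSMA4 (chr15:78540155-78540184, plus strand): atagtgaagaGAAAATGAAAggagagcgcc
PSMB4 (chr1:151399495-151399524, plus strand): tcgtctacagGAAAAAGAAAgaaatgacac
In all 4 inducible members the match reads GAAAGCGAAA on one strand or the other, which neither constitutive match does. It lay 11 bases before the start in PSMB10 and 18 before it in PSME2, spanned an annotated start in PSMB8 and lay just after one in PSME1. In PSMA4 and PSMB4 it was 230 and 58 bases before the start.

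PSMB9 had no match in its own window. The gene starts 488 bases from TAP1, the peptide transporter gene that is read in the opposite direction, and the TAP1 window held 2 overlapping matches. The segment around the first is shown because it lies next to PSMB9.
TAP1 (chr6:32853819-32853848, minus strand): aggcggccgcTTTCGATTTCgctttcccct
A gamma-activated site, searched as TTCNNNGAA on both strands, was found in 1 of 5 inducible members (PSMB8), 6 of 28 constitutive ones and 9.38% of all genes. An antioxidant response element core, TGACNNNGC on both strands, was in 3 of 5 inducible members, 8 of 28 constitutive ones and 16.1% of all genes. These are matches of letters, not measured binding.

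In PC9, almonertinib was followed by higher RNA of all 3 inducible catalytic subunits, and paclitaxel by a smaller rise of 2 of them. All paclitaxel changes in PC9 share the limit that the drug and the GC trend cannot be told apart. PSMB8, on chromosome 6 within the class II region, stood at 144, 141 and 155 CPM in the control libraries, 259.7, 279 and 368 with almonertinib, 206, 200.0 and 209 with paclitaxel and 206, 200.1 and 206 with the combination. Every treated library was above every control, and every almonertinib library above every other treated one. The log2 fold changes were 1.05 ± 0.11 (2.07-fold, adjusted p = 7.21e-07), 0.46 ± 0.11 (adjusted p = 0.00207) and 0.47 ± 0.11 (adjusted p = 0.00188) in the same order. PSMB9, its neighbour, stood at 80.8, 94.1 and 100.5 CPM in the controls, 183, 183 and 254 with almonertinib, 157, 140.4 and 152 with paclitaxel and 148, 152 and 157 with the combination. It rose by 1.18 ± 0.12 (2.27-fold, adjusted p = 5.71e-07), 0.69 ± 0.12 (adjusted p = 2.09e-04) and 0.73 ± 0.12 (adjusted p = 1.07e-04), with no treated library inside the control range. The mitochondrial share of counts also differed between these groups: it was 0.475% to 0.855% in the almonertinib libraries and 1.23% to 1.39% in the controls, 1.24% to 1.29% with paclitaxel and 1.05% to 1.31% with the combination. Its part in these results was not tested.

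PSMB10, the third inducible catalytic subunit, encoded on chromosome 16, followed another pattern. Its libraries read 21.6, 27.2 and 29.0 CPM in the controls, 45.5, 44.2 and 56.7 with almonertinib, 22.9, 22.7 and 25.0 with paclitaxel and 42.9, 42.6 and 45.8 with the combination. The paclitaxel libraries lay within the control range, and the other treated groups lay above it. PSMB10 rose with almonertinib by 0.92 ± 0.12 (1.89-fold, adjusted p = 7.26e-06) and with the combination by 0.75 ± 0.12 (adjusted p = 7.38e-05), while the change with paclitaxel was -0.16 ± 0.12 (adjusted p = 0.28). Without the 4 libraries that stood apart the almonertinib changes were 0.90 for PSMB8, 1.02 for PSMB9 and 0.82 for PSMB10. All 3 were still called, though almonertinib and the GC trend cannot be told apart in that setting. With the length and GC trend removed the changes were 1.25, 1.30 and 0.91. The paclitaxel change of PSMB10 was then above 0 but not called, and its log2 ratio to PSMB7 changed by 0.34. PSMB8 and PSMB9 overlap by 139 bases on opposite strands, and the strand used for counting is not given in the sources used here, so some of their reads cannot be assigned to one or the other. PSMB10 shares 644 bases of exon with a read-through gene on its own strand, which makes its absolute level uncertain.

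The activator genes PSME1 and PSME2 were among the more abundant members and changed less. PSME1 stood at 419, 415 and 462 CPM in PC9 controls, 421, 518 and 602 with almonertinib, 491, 492 and 496 with paclitaxel and 565, 514 and 548 with the combination. Only the combination was called, at 0.32 ± 0.11 (adjusted p = 0.0213), and that call was lost without control replicate 1 or 2 or combination replicate 1 or 3 (0.30 to 0.37 over the 12 fits that leave out 1 library). The other changes were 0.26 ± 0.11 with almonertinib (adjusted p = 0.0548) and 0.17 ± 0.11 with paclitaxel (adjusted p = 0.199). PSME2, the partner subunit, gave 346, 334 and 366 CPM in the controls, 330.2, 395 and 459 with almonertinib, 432, 402 and 408 with paclitaxel and 321, 312 and 358 with the combination. None of its 3 changes against control was called: 0.19 with almonertinib, 0.23 with paclitaxel and -0.08 with the combination. With the trend removed, PSME1 was called higher in all 3 comparisons (0.55, 0.46 and 0.57), and PSME2 with almonertinib (0.29) and paclitaxel (0.51).

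**Figure D1:**
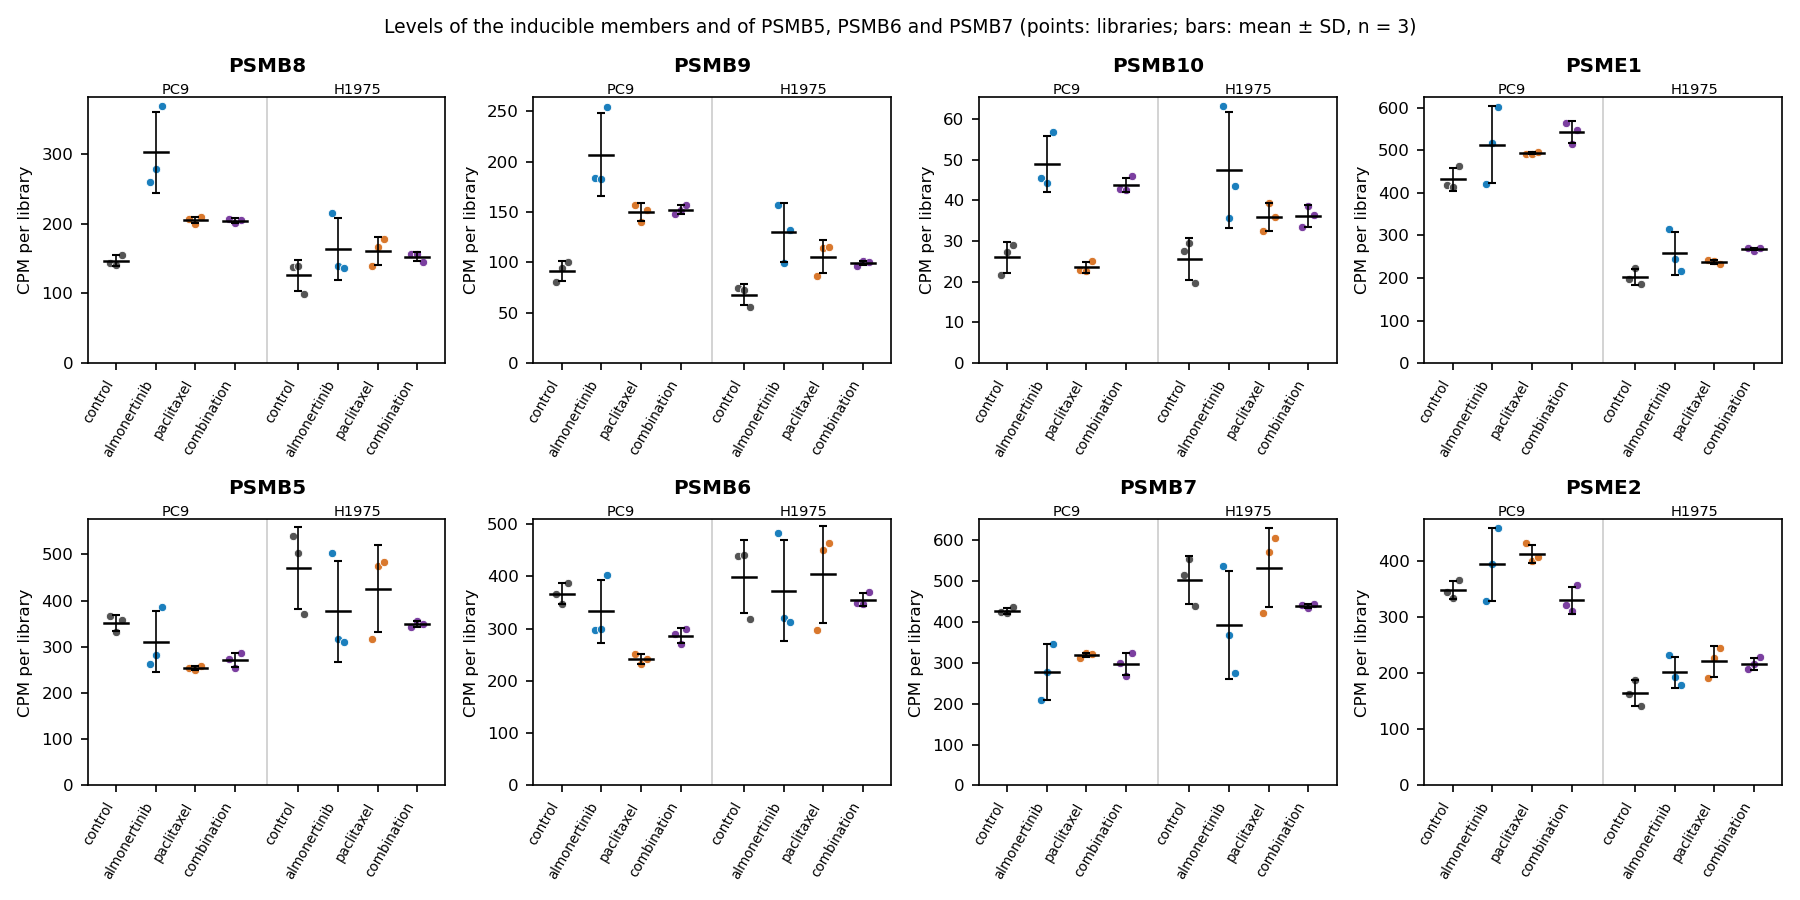
CPM of the 5 inducible members and of PSMB5, PSMB6 and PSMB7 in each of the 24 libraries, by line and treatment; points are libraries, and bars the mean ± SD (n = 3). In PC9 the almonertinib points of PSMB8 and PSMB9 lie above all other PC9 points, the paclitaxel points of PSMB10 lie with the controls, and in H1975 the control, almonertinib and paclitaxel points of PSMB5, PSMB6 and PSMB7 are spread more widely than the combination points.

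The counts for the 5 inducible genes are read against all genes of the same fit. In PC9 with almonertinib 3 of 5 rose and 0 fell, where 28.9% of all tested genes rose and 27.8% fell. Paclitaxel gave 2 of 5 higher against 27.0% of all genes (28.0% lower), and the combination 4 of 5 against 24.7% (26.0% lower). Their median log2 fold changes were 0.92, 0.23 and 0.47, beside 0.03, -0.01 and 0.00 for all tested genes. Calls were thus common in PC9, and a share of 2 in 5 is not far from that background.

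The combination did not add the single-drug rises of PSMB8 and PSMB9 together. Since the doses inside the combination are not given, an interaction of the drugs and a difference in dose cannot be told apart. Against almonertinib alone, PSMB8 had a log2 fold change of -0.58 ± 0.11 (adjusted p = 0.00138), and PSMB9 had a log2 fold change of -0.45 ± 0.12 (adjusted p = 0.013), a call lost without combination replicate 1 (-0.54 to -0.28 over the 12 fits that leave out 1 library). In that comparison 10.3% of all genes were higher and 9.74% lower. Against paclitaxel alone, PSMB8 (0.01) and PSMB9 (0.04) were not called, PSMB10 was higher by 0.91 ± 0.12 (adjusted p = 1.73e-05) and PSME2 had -0.31 ± 0.11 (adjusted p = 0.0275; lost without paclitaxel replicate 1 or combination replicate 1 or 2, -0.36 to -0.28), where 21.7% of all genes were higher and 22.4% lower. The interaction of the drugs (combination plus control, less the sum of the single drugs) was -1.04 ± 0.15 for PSMB8 (adjusted p = 6.56e-05), -1.14 ± 0.17 for PSMB9 (adjusted p = 6.69e-05) and -0.49 ± 0.15 for PSME2 (adjusted p = 0.0137). PSMB10 had an interaction of -0.01 ± 0.17 and PSME1 of -0.10 ± 0.15, neither called, beside 22.1% of all genes with a positive and 23.4% with a negative interaction. After removal of the trend, the interactions of PSMB8 and PSMB9 were -1.36 and -1.44.

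The 3 constitutive catalytic subunits did not share the rise of their inducible counterparts. PSMB5, which carries the chymotrypsin-like site, stood at 366, 333 and 358 CPM in PC9 controls, 263, 283 and 386 with almonertinib, 254, 250.4 and 259.5 with paclitaxel and 273, 255 and 286 with the combination. It fell with paclitaxel (log2 fold change -0.49 ± 0.12) and the combination (-0.38 ± 0.12) and was not called with almonertinib (-0.17 ± 0.12, adjusted p = 0.215). PSMB6, the caspase-like site, had the same calls, with -0.62 ± 0.11, -0.36 ± 0.11 and -0.13 ± 0.11 in the same order, and both genes were called lower with almonertinib when its replicate 3 was left out (-0.34 and -0.28 without it). Their calls with the combination were lost without its replicate 2 (-0.42 to -0.33 for PSMB5 and -0.40 to -0.32 for PSMB6 over the 12 fits). PSMB7, the trypsin-like site, read 424, 421 and 435 CPM in the controls and 208, 278 and 345 with almonertinib, and was called lower in all 3 comparisons: -0.62 ± 0.13 with almonertinib (adjusted p = 8.34e-04), -0.44 ± 0.13 with paclitaxel and -0.53 ± 0.13 with the combination. With the length and GC trend removed the changes in the order almonertinib, paclitaxel and combination were 0.14, -0.24 and -0.15 for PSMB5, 0.05, -0.29 and -0.18 for PSMB6 and -0.30, -0.19 and -0.25 for PSMB7. The combination call of PSMB5 and the paclitaxel call of PSMB7 were then lost.

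Within a library, the ratio of an inducible subunit to the subunit it replaces does not depend on the scaling of that library, since both are divided by the same total. Of the counts per length of PSMB8 and PSMB5 together, PSMB8 made up 31.2%, 32.8% and 33.3% in the PC9 control libraries, 53.2%, 53.1% and 52.3% with almonertinib, 48.3%, 47.9% and 48.1% with paclitaxel and 46.5%, 47.5% and 45.3% with the combination. The shares of a group lay close together, with means of 32.4% ± 1.10 (SD, n = 3), 52.9% ± 0.497, 48.1% ± 0.218 and 46.4% ± 1.10 in the same order. The change of the log2 ratio of PSMB8 to PSMB5 was 1.23 ± 0.05, 0.95 ± 0.04 and 0.85 ± 0.06 (SE of the difference).

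PSMB9 over PSMB6 changed by 1.31 ± 0.09 with almonertinib, 1.31 ± 0.09 with paclitaxel and 1.10 ± 0.10 with the combination. Its share of the pair was 21.4% ± 1.76 in the controls, 40.3% ± 0.413 with almonertinib, 40.3% ± 0.528 with paclitaxel and 36.7% ± 1.16 with the combination. The paclitaxel ratio reached the almonertinib ratio although PSMB9 itself was lower, with PSMB6 lower as well. PSMB10 was the minor partner throughout, with 4.66% ± 0.628 of the pair with PSMB7 in the controls, 12.7% ± 2.00 with almonertinib, 5.61% ± 0.282 with paclitaxel and 10.7% ± 0.596 with the combination. Its log2 ratio changed by 1.57 ± 0.19, 0.29 ± 0.13 and 1.29 ± 0.13.

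In H1975 the ratios were higher in each treated group than in the controls. PSMB8 over PSMB5 read -1.77, -1.65 and -1.69 in the control libraries, -1.03, -0.98 and -0.99 with almonertinib, -0.99, -1.30 and -1.25 with paclitaxel and -0.92, -0.99 and -1.06 with the combination. The changes were 0.70 ± 0.04, 0.52 ± 0.10 and 0.71 ± 0.05 for PSMB8 over PSMB5, 1.03 ± 0.14, 0.63 ± 0.08 and 0.71 ± 0.04 for PSMB9 over PSMB6, and 1.28 ± 0.22, 0.43 ± 0.14 and 0.71 ± 0.11 for PSMB10 over PSMB7. The control libraries of H1975 differed by less in the ratio than in CPM: PSMB8 alone was 138, 139.7 and 99.8 CPM there. Over both lines, the treated and the control libraries did not overlap in any of the 18 comparisons (3 pairs in 6 treated groups). Of single genes tested, 56.2%, 66.2% and 62.9% had groups without overlap in PC9 with almonertinib, paclitaxel and the combination, and 11.8%, 13.8% and 32.9% in H1975. These shares are for CPM of single genes. No such share was obtained for ratios of gene pairs, so the 18 have no like background. All 18 changes were also above 0 with the trend removed (0.34 to 1.34) and without the 4 libraries. No test was made of the ratios, since 3 libraries against 3 cannot give an exact permutation p under 0.05 and the genes were chosen with their behaviour known.

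**Figure D2:**
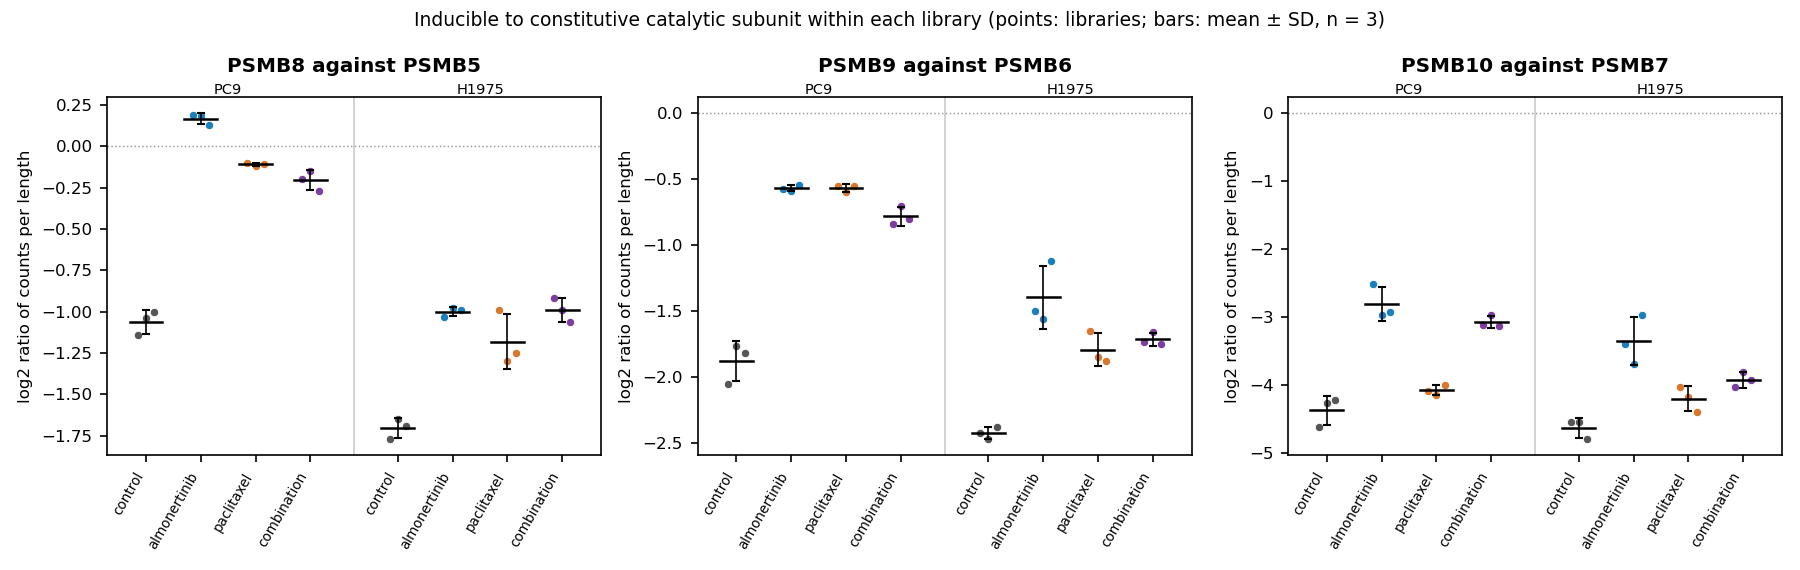
Log2 ratio of counts per transcript length of PSMB8 to PSMB5, PSMB9 to PSMB6 and PSMB10 to PSMB7 in each of the 24 libraries; points are libraries and bars the mean ± SD (n = 3), and the dotted line marks equal amounts. All treated groups lie above the control group of their line, by 0.29 to 1.57 on the log2 scale, with the smallest step for PSMB10 with paclitaxel in PC9.

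The constitutive genes moved mostly the other way in PC9. Of 32 tested (PSMA2 had too few counts), 15 fell and 5 rose with almonertinib, 16 fell and 5 rose with paclitaxel, and 23 fell and 0 rose with the combination. Their median log2 fold changes were -0.23, -0.27 and -0.42, where the medians of all tested genes were 0.03, -0.01 and 0.00. The shares of all genes called lower, given above for these comparisons, were between 26.0% and 28.0%. Without the length and GC trend, 15, 13 and 19 of the 32 were called lower and 7, 2 and 0 higher, beside 30.5%, 29.7% and 31.2% of all genes lower and 29.9%, 22.5% and 27.1% higher. Without the 4 libraries the almonertinib counts were 18 lower and 7 higher (30.4% and 32.4% of all genes). All 38 genes together took 0.691% ± 0.0243 of the counts of a PC9 control library (SD, n = 3), 0.600% ± 0.0259 with almonertinib, 0.696% ± 0.0156 with paclitaxel and 0.568% ± 0.00727 with the combination. In H1975 the shares were 0.762% ± 0.0257, 0.737% ± 0.0370, 0.818% ± 0.0156 and 0.766% ± 0.00837 in the same order.

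**Figure D3:**
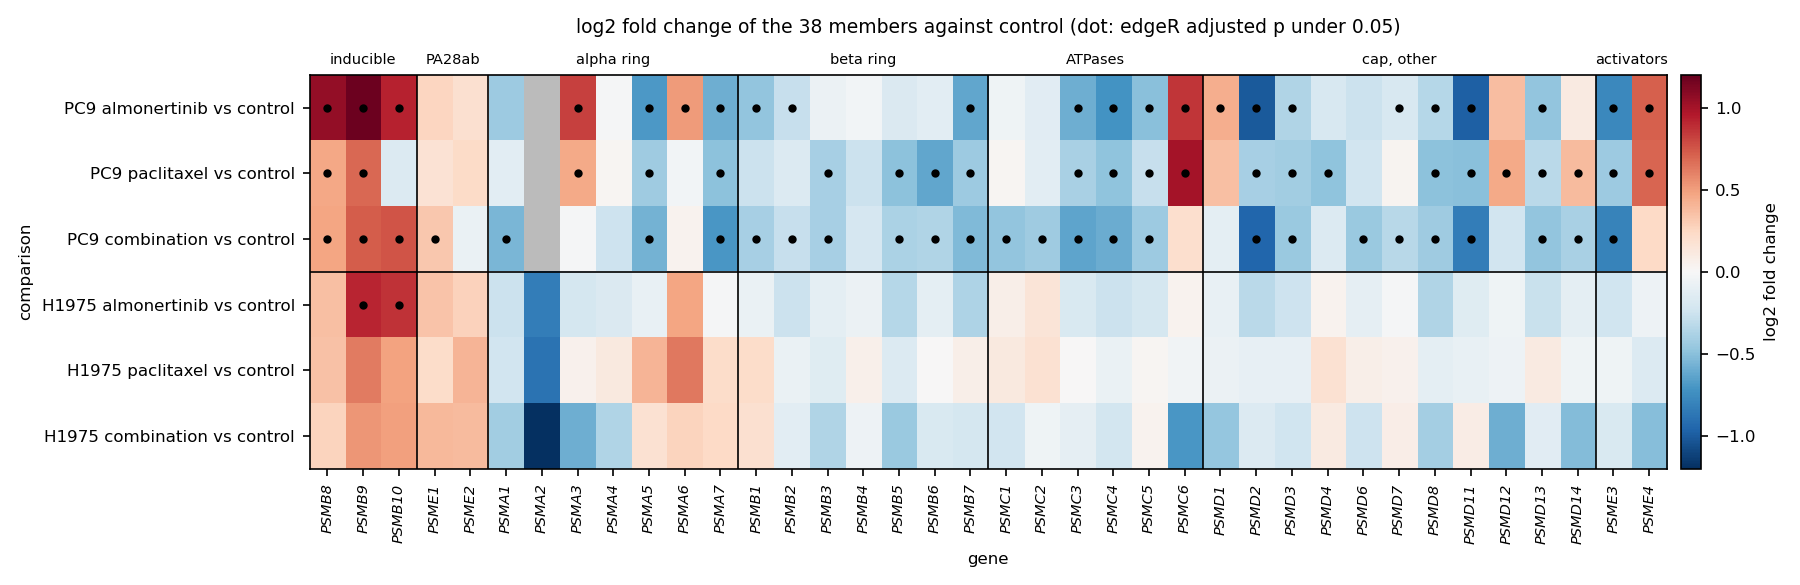
Log2 fold change against the control of the same line for the 38 genes, ordered by role, in 6 comparisons; colours stop at 1.2 in either direction, grey marks PSMA2, which was not tested in PC9, and a dot marks an edgeR adjusted p under 0.05. The PC9 rows carry 23, 23 and 27 dots, most of them on falling constitutive genes, whereas the H1975 rows carry 2, 0 and 0.

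In the alpha ring, whose subunits form the gate of the barrel, 2 of 6 tested genes rose and 2 fell with almonertinib in PC9. That is near the 28.9% of all genes that rose and the 27.8% that fell. PSMA5 stood at 171, 159 and 173 CPM in the controls and 89.0, 114 and 108 with almonertinib, without overlap, a log2 fold change of -0.69 ± 0.10. PSMA7 fell too, from 317, 295 and 307 to 189.6, 199 and 219 CPM (-0.59 ± 0.09). These 2 also fell with paclitaxel (-0.43 and -0.49) and with the combination (-0.57 and -0.70). PSMA3 went the other way, from 38.2, 40.6 and 32.8 CPM to 63.6, 77.6 and 55.1 with almonertinib (0.82 ± 0.12), and PSMA6 rose by 0.51 ± 0.18, a call lost without control replicate 1 or 2 (0.42 to 0.67). With paclitaxel PSMA3 rose by 0.45 ± 0.12, and with the combination it was back at 36.9, 35.6 and 38.9 CPM (-0.01, not called). In the trend-removed fit, the rise of PSMA3 was 0.42 with almonertinib and 0.06 with paclitaxel, the latter not called, and PSMA4 was called lower in all 3 comparisons (-0.31, -0.47 and -0.41). PSMA1, PSMA2 and PSMA6 each share exon sequence with a read-through gene on the same strand, so reads may have been lost or divided there. PSMA2 had raw counts of 3, 2 and 1 in the PC9 controls and 14, 15 and 16 in the H1975 controls.

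In the beta ring, 3 of 7 constitutive genes fell with almonertinib, 4 with paclitaxel and 6 with the combination, and none rose, where 27.8%, 28.0% and 26.0% of all genes fell and 28.9%, 27.0% and 24.7% rose. Once the trend was removed, 1 was lower and 1 higher with almonertinib, 2 and 0 with paclitaxel, and 3 and 0 with the combination. Besides the catalytic subunits, PSMB1 fell with almonertinib (-0.47 ± 0.12) and the combination (-0.40 ± 0.12), from 266, 259.5 and 266 CPM in the controls to 215, 185 and 202 with the combination. PSMB2 fell by 0.28 ± 0.09 and 0.28 ± 0.09 in these 2 comparisons, calls that were lost without control replicate 1 or, respectively, almonertinib replicate 1 or combination replicate 2. The call of PSMB1 with the combination was lost without combination replicate 2 (-0.45 to -0.34). PSMB3 fell by 0.40 both with paclitaxel and with the combination. PSMB4, a non-catalytic subunit and the member with the highest mean level per length, was not called in any of the 3, with -0.03, -0.26 and -0.20. With the trend removed PSMB4 was the 1 called higher with almonertinib (0.27), and the calls of PSMB1 and PSMB2 and the paclitaxel call of PSMB3 were lost (-0.19 and -0.11, -0.07 and -0.13, and -0.07).

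The ATPases of the cap, which unfold the substrate, were called lower for 3 of 6 with almonertinib, 3 with paclitaxel and 5 with the combination, beside 27.8%, 28.0% and 26.0% of all genes. PSMC4 stood at 223, 213 and 224 CPM in PC9 controls, 116, 134 and 149.7 with almonertinib, 155, 158 and 167 with paclitaxel and 153, 138 and 145 with the combination, and its log2 fold changes were -0.72 ± 0.09, -0.48 ± 0.09 and -0.60 ± 0.09. PSMC3 changed by -0.59 ± 0.10, -0.39 ± 0.10 and -0.63 ± 0.10 and PSMC5 by -0.50 ± 0.09, -0.28 ± 0.09 and -0.44 ± 0.09, all called lower. The paclitaxel call of PSMC5 was lost without control replicate 1 or paclitaxel replicate 2 or 3 (-0.33 to -0.22). After removal of the trend, 4 were lower and 2 higher with almonertinib, 2 and 1 with paclitaxel, and 5 and 0 with the combination. The paclitaxel calls of PSMC3 (-0.13) and PSMC5 (-0.05) were then lost, while PSMC2 was called lower with almonertinib and paclitaxel (-0.66 and -0.79, against -0.14 and -0.13 as fitted). PSMC6 was the exception, at 15.3, 15.2 and 12.2 CPM in the controls, 29.8, 29.4 and 18.1 with almonertinib, 29.5, 28.2 and 29.0 with paclitaxel and 15.2, 17.6 and 16.5 with the combination. Its rises of 0.86 ± 0.16 and 1.00 ± 0.16 shrank to 0.25 and 0.28 with the trend removed.

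Among the 11 other cap subunits, 6 fell and 1 rose with almonertinib, 6 fell and 2 rose with paclitaxel, and 8 fell with the combination, where 27.8%, 28.0% and 26.0% of all genes fell and 28.9%, 27.0% and 24.7% rose. Without the length and GC trend, 6 were lower and 1 higher with almonertinib, 6 and 1 with paclitaxel, and 7 and 0 with the combination. PSMD2, a large scaffold subunit of the cap base that docks ubiquitin receptors and shuttles, stood at 1096, 895 and 991 CPM in the controls, 458, 489.8 and 524 with almonertinib, 759, 728 and 801 with paclitaxel and 549.9, 482 and 517 with the combination. The almonertinib and combination libraries lay well below the controls, and the paclitaxel libraries between them. It fell by 1.01 ± 0.10 (2.02-fold lower, adjusted p = 3.89e-07), by 0.40 ± 0.10 and by 0.95 ± 0.10 (adjusted p = 1.13e-06) in the same order. PSMD11, a lid subunit that holds the cap together, went from 127, 111 and 118 CPM to 58.5, 63.1 and 57.6 with almonertinib, 83.8, 87.2 and 84.7 with paclitaxel and 65.2, 68.2 and 67.1 with the combination. Its log2 fold changes were -0.98 ± 0.08 (adjusted p = 4.38e-08), -0.50 ± 0.08 and -0.83 ± 0.08 (adjusted p = 4.59e-07). These falls were -0.78 and -0.71 with almonertinib once the trend was removed.

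Other cap genes changed less. PSMD8 fell by 0.34 ± 0.11 with almonertinib, 0.49 ± 0.11 with paclitaxel and 0.43 ± 0.11 with the combination. PSMD13 and PSMD3, both lid subunits, were lower in all 3 comparisons as well, with -0.47, -0.32 and -0.47 for PSMD13 and -0.36, -0.42 and -0.45 for PSMD3. PSMD4, a ubiquitin receptor, fell with paclitaxel (-0.48 ± 0.09) and was not called with almonertinib (-0.19) or the combination (-0.16). PSMD1, the other large scaffold, rose with almonertinib (0.44 ± 0.15, adjusted p = 0.0202), although its almonertinib and control libraries overlapped. PSMD14, the deubiquitinase of the lid, rose with paclitaxel (0.38 ± 0.14) and fell with the combination (-0.39 ± 0.14). PSMD12 was called higher with paclitaxel (0.45 ± 0.16, adjusted p = 0.0243) but had -0.32 with the trend removed, so its direction depends on that step. That step also ended the paclitaxel call of PSMD13 (-0.11) and the combination call of PSMD14 (-0.25). Leaving out 1 library ended 5 calls of the genes named here: PSMD8 with almonertinib (without almonertinib replicate 1 or 2, -0.48 to -0.23), PSMD1 with almonertinib (without control replicate 3 or almonertinib replicate 1 or 2, 0.28 to 0.63), PSMD12 with paclitaxel (without control replicate 2 or 3 or paclitaxel replicate 2, 0.37 to 0.53), and PSMD14 with paclitaxel (without control replicate 3 or paclitaxel replicate 1, 0.28 to 0.45) and with the combination (without control replicate 1 or 2 or combination replicate 1 or 3, -0.49 to -0.32).

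The 2 activators outside the inducible pair moved apart. PSME3 stood at 193, 159 and 166 CPM in PC9 controls, 102, 102 and 98.4 with almonertinib, 139, 126 and 123 with paclitaxel and 102, 90.6 and 105 with the combination, and fell by 0.77 ± 0.09, 0.44 ± 0.09 and 0.80 ± 0.09. PSME4 rose with almonertinib (0.72 ± 0.20) and paclitaxel (0.70 ± 0.20) from low levels, 13.3, 13.4 and 12.2 CPM in the controls against 26.1, 23.1 and 14.7 and 22.6, 23.7 and 18.0, and was not called with the combination (0.24). In the trend-removed fit, PSME3 had -0.44, -0.17 and -0.54, its paclitaxel call being lost, and PSME4 was at 0.32 and 0.09, the latter not called.

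The log2 fold changes of the constitutive genes moved with GC content. Across the 32 tested genes, Spearman's rho between GC content and the log2 fold change in PC9 was -0.53 with almonertinib, -0.73 with paclitaxel, -0.48 with the combination and 0.64 for the interaction. Genes are not independent replicates, and these values share their libraries. The risers PSMC6 (36.8% GC), PSMD12 (37.9%), PSMA3 (40.7%) and PSME4 (41.5%) had low GC content, while PSMD2 had 54.3%. PSMA5, at 37.2%, went against this and fell further with the trend removed, to -1.28, -1.22 and -0.88 in the 3 comparisons. Once the trend was removed, PSMB8 had 1.25, 0.76 and 0.65, PSMB9 1.30, 1.04 and 0.90 and PSMC4 -0.50, -0.22 and -0.47, all still called, and PSMB10 rose with almonertinib and the combination (0.91 and 0.81).

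**Figure D4:**
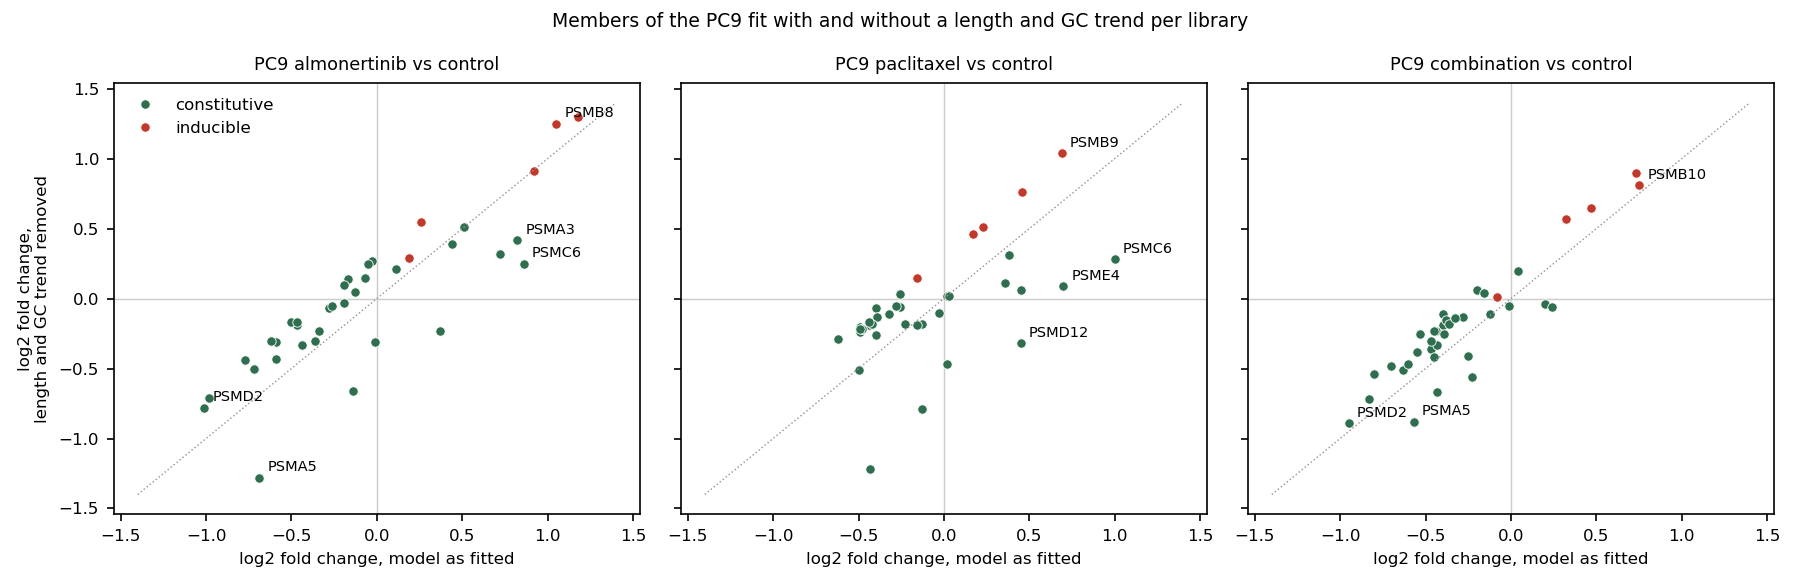
Log2 fold change against control of the tested members in PC9, as fitted (x axis) and with a length and GC trend removed per library (y axis), for almonertinib, paclitaxel and the combination; red points are inducible and green points constitutive members, and the dotted line marks equal values. PSMC6, PSME4 and PSMD12 lie well below the line with paclitaxel (PSMD12 at -0.32 on the y axis), while the inducible genes lie on or above it.

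The constitutive genes of the combination were set against each single drug, with the same limit that the doses inside the combination are not given. Compared with almonertinib, 7 of 32 were lower and 0 higher (9.74% and 10.3% of all genes), led by PSMA3 (-0.83), PSMC6 (-0.66), PSMD12 (-0.61) and PSMD1 (-0.56). Compared with paclitaxel, 11 were lower and 1 higher (22.4% and 21.7% of all genes), with PSMC6 (-0.80), PSMD14 (-0.77), PSMD12 (-0.68) and PSMD2 (-0.55) lowest and PSMD4 (0.32) the higher one. The interaction was positive for 11 and negative for 7 of the 32, beside 22.1% and 23.4% of all genes. It was most negative for PSMC6 (-1.66 ± 0.22), PSMA3 (-1.28 ± 0.16), PSME4 (-1.19 ± 0.28) and PSMD12 (-1.06 ± 0.23), genes called higher with 1 or both single drugs and not with the combination. It was most positive for PSMD11 (0.65 ± 0.11), PSMC4 (0.59 ± 0.13), PSMA5 (0.55 ± 0.13) and PSMB7 (0.53 ± 0.19), whose falls with the single drugs did not add up. Of these calls, PSMD12 against almonertinib held in 10 of the 12 fits that leave out 1 library (-0.77 to -0.48, lost without almonertinib replicate 1 or combination replicate 3), PSMD1 in 9 (-0.74 to -0.40, lost without almonertinib replicate 1 or combination replicate 1 or 3), and the interaction of PSMB7 in 6 (0.36 to 0.70, lost without control replicate 3, any paclitaxel library, or combination replicate 1 or 3). With the trend removed the interaction was -0.57 for PSMC6, -0.53 for PSMA3, 0.00 for PSMD12 and 0.50 for PSMD11, the call of PSMD12 and that of PSMB7 (0.24) were lost, and 4 were positive and 8 negative (22.4% and 21.8% of all genes).

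In H1975, 2 inducible genes rose with almonertinib and no other of the 38 was called in any comparison within that line. PSMB9 stood at 75.1, 73.1 and 56.3 CPM in the controls and 157, 99.7 and 132 with almonertinib, a log2 fold change of 0.91 ± 0.18 (adjusted p = 0.0112). PSMB10 stood at 27.5, 29.4 and 19.7 and 63.2, 35.6 and 43.6 CPM, or 0.87 ± 0.20 (adjusted p = 0.0297). In both genes replicate 1 of almonertinib was the highest library and replicate 3 of the controls the lowest, and both belong to the 4 libraries that stood apart. Without those 4 the changes were 0.66 and 0.50, both still called, though almonertinib and the GC trend cannot be told apart there. In a fit of the 2 groups alone neither was called: the log2 fold changes were 0.87 (adjusted p = 0.148) for PSMB9 and 0.83 (adjusted p = 0.281) for PSMB10. Of the 12 fits that leave out 1 library, PSMB9 was called in 11 (0.78 to 1.05, lost without control replicate 2). PSMB10 was called in 5 (0.65 to 1.03), the call being lost without any control library, almonertinib replicate 3, paclitaxel replicate 3, or combination replicate 2 or 3. In that comparison 1.35% of all tested genes rose and 0.599% fell.

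PSMB8 was not called there, at 138, 139.7 and 99.8 CPM in the controls and 215, 139.6 and 136 with almonertinib (0.36 ± 0.18, adjusted p = 0.546), and without the 4 libraries its change was 0.01. After removal of the trend, it was called, at 0.37. The change of the ratio of PSMB8 to PSMB5 in H1975 came with 0.36 for PSMB8 and -0.34 for PSMB5 in the fit, and with 0.01 and -0.72 without the 4 libraries. PSMB6 and PSMB7 were at -0.12 and -0.37, and at -0.45 and -0.71 without the 4 libraries. PSME1 and PSME2 changed by 0.34 ± 0.15 and 0.28 ± 0.16, neither called.

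Paclitaxel and the combination gave no call among the 38 in H1975. For PSMB9 the paclitaxel libraries read 86.7, 115 and 116 CPM and the combination libraries 96.9, 101 and 100.4, all above the 3 controls, and its log2 fold changes were 0.62 ± 0.18 (adjusted p = 0.177) and 0.53 ± 0.18 (adjusted p = 0.121). The other inducible genes had 0.35 (PSMB8), 0.48 (PSMB10), 0.22 (PSME1) and 0.41 (PSME2) with paclitaxel, and 0.27, 0.49, 0.39 and 0.38 with the combination. With paclitaxel 0.446% of all tested genes rose and 0.194% fell, and with the combination 1.77% and 0.697%. At an unadjusted p under 0.05, edgeR had 3 of 5 inducible genes higher with paclitaxel and 4 with the combination. The share of all genes at that threshold is not given here, so these counts cannot be read against it. DESeq2 called 0 and 0.

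The 33 constitutive genes of H1975 had no call with any drug. Their median log2 fold changes were -0.12 with almonertinib, 0.00 with paclitaxel and -0.21 with the combination, beside 0.02, -0.03 and -0.04 for all tested genes. At an unadjusted p under 0.05, edgeR had 0 higher and 0 lower with almonertinib, 1 and 0 with paclitaxel, and 0 and 6 with the combination. No share of all genes at that threshold is given here to read these against. DESeq2 called 0 in each. Without the 4 libraries, 14 were called lower and 6 higher with almonertinib, 0 and 2 with paclitaxel, and 11 and 0 with the combination. Calls over all genes rose as well under this setting, to 21.6% lower and 23.9% higher with almonertinib, 5.25% and 3.58% with paclitaxel, and 19.2% and 15.8% with the combination. The zeros of H1975 thus depend on those libraries being included. Without them, neither single drug nor the combination can be told apart from the GC trend of the libraries in H1975. The biological coefficient of variation was 0.191 in H1975 and 0.111 in PC9. The combination in H1975 gave no call against either single drug, where 0.0% of all genes were called, and none in the interaction (0.259% of all genes positive and 0.413% negative). At an unadjusted p under 0.05, edgeR had 0 of the 38 higher and 3 lower against almonertinib, and 0 and 4 against paclitaxel. It had 0 positive and 2 negative interactions. These unadjusted counts again stand without a share of all genes. DESeq2 called 0, 0 and 1.

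A direct test of the treatment effect in PC9 minus that in H1975 called few of the 38. With almonertinib 4 constitutive genes had a lower and 1 a higher response in PC9, and 1 inducible gene, PSMB8, a higher one (0.67 ± 0.23, adjusted p = 0.0476), beside 5.53% of all genes with a higher and 11.0% with a lower response. That call of PSMB8 held in 9 of the 24 fits that leave out 1 library (0.50 to 0.94). DESeq2 did not make it (0.66, adjusted p = 0.052). PSMB9 (0.24) and PSMB10 (0.02) were not called in this test. With paclitaxel 3 constitutive genes responded lower in PC9 (9.9% of all genes higher and 7.21% lower), and with the combination 7 (6.99% and 11.0%), with none higher. PSMA7 responded lower in PC9 under all 3 treatments, by -0.60, -0.71 and -0.96, and so did PSMA5, by -0.61, -0.83 and -0.76. With almonertinib these calls held in 13 (PSMA7) and 18 (PSMA5) of the 24 fits, and with paclitaxel in 22 and 24. Without the length and GC trend, PSMA7 was not called under almonertinib (-0.29) or paclitaxel (-0.29). PSMD11 did under almonertinib (-0.85 ± 0.15, adjusted p = 2.38e-04) and the combination (-0.93 ± 0.15, adjusted p = 1.25e-04).

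Untreated, the lines differed in many of these genes, about as often as among all genes. Of the 38, 7 constitutive genes were higher and 17 lower in PC9 controls, and 3 inducible genes higher, where 34.9% of all genes were higher and 33.8% lower. PSME1 stood at 419, 415 and 462 CPM in PC9 and 197, 222 and 187 in H1975 (1.09 ± 0.14), and PSME2 at 346, 334 and 366 and 164, 189 and 143 (1.08 ± 0.14). PSMB9 was higher by 0.43 ± 0.16, a sign that turned with the trend removed (-0.10), and PSMB8 (0.22) and PSMB10 (0.02) were not called. The sign of PSMB8 and PSMB10 turned as well, and with the trend removed both were called lower in PC9 (-0.30, adjusted p = 4.00e-04, and -0.26, adjusted p = 0.0154). PSMA5 (1.58), PSMC3 (1.07), PSMC4 (0.93) and PSMB1 (0.63) were the constitutive genes most above H1975. In the trend-removed fit, PSMB1 was not called (0.16). Most below it were PSMC1 (-1.66), PSMD3 (-1.52), PSME4 (-1.51) and PSMA2, for which no fold is given because its PC9 control libraries held 3 counts or fewer each. PSMB5 was lower in PC9 (-0.42 ± 0.18, adjusted p = 0.0449), and PSMB6 (-0.12) and PSMB7 (-0.23) were not called. The calls of PSMB9 and PSMB5 held in 21 and 14 of the 24 fits that leave out 1 library (0.31 to 0.50 and -0.57 to -0.31).

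Subunits of one particle were not at one RNA level. Scaled by transcript length, the mean over all 24 libraries was highest for PSMB4 at 646 CPM per kb and PSMB3 at 539, and lowest for PSMA1 at 2.30 and PSMA2 at 0.237, 2 genes whose exons overlap read-through genes. In PC9 controls PSMB4 was at 480.3 ± 23.7 CPM per kb (SD, n = 3) and PSMB3 at 429 ± 8.74, and in H1975 controls at 852 ± 144 and 777 ± 162. These 2 neighbours differed by more than their SDs in PC9 and by less in H1975. PSME1 was at 429 ± 26.2 and 201 ± 18.1 in the 2 lines and PSME2 at 248 ± 11.4 and 118 ± 16.6. PSMB8 and PSMB9 ranked 15 and 16 of 38 with means of 163 and 161 CPM per kb, a difference smaller than their spread between groups, and PSMB10 ranked 24 with 29.5.

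Genes that work around the proteasome were followed through lists chosen with earlier results of these data known, so their counts support nothing on their own. In PC9 28.9%, 27.0% and 24.7% of all genes rose and 27.8%, 28.0% and 26.0% fell with almonertinib, paclitaxel and the combination. The counts of these lists as fitted are to be read against these shares. Those with the trend removed are to be read against 29.9%, 22.5% and 27.1% higher and 30.5%, 29.7% and 31.2% lower. The chaperones and factors that assemble the particle (9 tested in PC9) had 2 lower with almonertinib, 2 with paclitaxel and 7 with the combination, and none higher. Once the trend was removed, 4 were lower and 1 higher with almonertinib, 5 and 2 with paclitaxel, and 7 and 1 with the combination. PSMG1, a chaperone of alpha ring assembly, stood at 16.7, 14.0 and 12.7 CPM in the controls, 7.68, 8.35 and 7.88 with almonertinib, 11.7, 11.7 and 10.4 with paclitaxel and 5.09, 5.37 and 5.84 with the combination. It fell by 0.86 ± 0.14, 0.38 ± 0.13 (lost without control replicate 1 or any paclitaxel library, -0.47 to -0.26) and 1.42 ± 0.14, and PAAF1, which binds ATPases of the cap, by 0.64 ± 0.12, 0.64 ± 0.12 and 0.57 ± 0.12. PSMG4, another assembly chaperone, fell with the combination (-0.63 ± 0.11).

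Of 11 further subunits and bound proteins, 2 rose and 6 fell with almonertinib, 3 rose and 2 fell with paclitaxel, and 1 rose and 5 fell with the combination. With the trend removed 7 were lower and 1 higher with almonertinib, 7 and 0 with paclitaxel, and 8 and 0 with the combination. ADRM1, a ubiquitin receptor of the cap, was lower in each (-0.31, -0.60 and -0.47), as was PSMF1, an inhibitor of the core (-0.45, -0.39 and -0.37). The almonertinib call of PSMF1 was lost with the trend removed (-0.19). SEM1, a small lid subunit, was called higher in each (0.67, 0.23 and 0.24), but with the trend removed it had 0.03, -0.53 and 0.00. The paclitaxel and combination calls of SEM1 held in 7 and 7 of the 12 fits that leave out 1 library, and the almonertinib call of ADRM1 in 9, lost without control replicate 3 or almonertinib replicate 1 or 2 (-0.42 to -0.23).

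Of 7 genes that control subunit transcription or import of the particle into the nucleus, 2 rose and 4 fell with almonertinib, 2 and 1 with paclitaxel, and 2 and 3 with the combination. NFE2L1, the factor that drives the constitutive subunit genes when proteasome activity is short, fell with almonertinib (-0.62 ± 0.08) from 241, 243 and 254 to 151, 158 and 168 CPM, and the libraries of these groups did not overlap. VCP, which pulls NFE2L1 out of the membrane, was lower in all 3 comparisons (-0.47, -0.58 and -0.31). DDI2, the protease that cleaves NFE2L1, was higher in all 3 (0.91, 1.15 and 0.56), as was the related factor NFE2L2 (0.66, 0.75 and 0.43), but with the combination these held in 7 and 9 of the 12 fits that leave out 1 library (0.47 to 0.69 and 0.32 to 0.53), and that of DDI2 was lost with the trend removed (0.28). IPO9 and AKIRIN2, which carry proteasomes into the nucleus, fell with almonertinib (-0.73 and -0.63) and the combination (-0.61 and -0.39).

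Of 9 genes that induce the immunoproteasome, 6 rose and 2 fell with almonertinib in PC9, 5 and 2 with paclitaxel, and 6 and 0 with the combination (28.9%, 27.0% and 24.7% of all genes higher and 27.8%, 28.0% and 26.0% lower). STAT2, a factor of type I interferon signalling, rose by 1.63 ± 0.11 with almonertinib, 1.32 ± 0.11 with paclitaxel and 1.34 ± 0.11 with the combination. IRF1, a factor that binds promoters of inducible subunits, followed another course, with -0.31 ± 0.14 (not called), -0.65 ± 0.14 (called lower) and 0.59 ± 0.14 (called higher), and read 85.9, 133 and 143 CPM in the controls, 73.2, 79.7 and 80.3 with paclitaxel and 189.6, 169.9 and 186 with the combination.

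The class I peptide path (6 tested) had 3 higher and 2 lower with almonertinib in PC9, 3 and 0 with paclitaxel, and 3 and 2 with the combination. The 2 of 6 that were lower with almonertinib are near the share over all genes. The 2 chains of the peptide transporter parted. TAP1, whose promoter lies next to PSMB9, averaged 142 ± 18.9 CPM (SD, n = 3) in the PC9 controls and 386 ± 54.3 with almonertinib. It averaged 260 ± 9.40 with paclitaxel and 258 ± 7.56 with the combination. Its interaction was -1.45 ± 0.15 beside -1.14 for PSMB9. TAP2 fell with almonertinib (-0.53 ± 0.11) and the combination (-0.81 ± 0.11). B2M, the light chain of class I molecules, fell in the same 2 comparisons (-0.38 and -0.39), calls lost without control replicate 2 with almonertinib and without combination replicate 2 with the combination (-0.49 to -0.30 and -0.51 to -0.31). TAPBP, which bridges the transporter to class I molecules, rose in both (0.46 and 0.59). ERAP2, a peptidase that trims peptides in the endoplasmic reticulum, rose in all 3 comparisons (1.11, 1.07 and 0.91). In H1975 with almonertinib TAP1 was the one called (0.67 ± 0.16, adjusted p = 0.0389), in 3 of the 12 fits (0.60 to 0.72).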

How the data were processed

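RNA of 24 libraries was sequenced. TRIzol was used for extraction and a SMART-RNAseq kit for library preparation, per the labels' protocols. The authors deposited raw counts per gene, whole numbers without normalisation. Per the submitters' processing notes HISAT2 2.2.1, HTSeq and GRCh38 were used; the HTSeq version, its settings, the annotation and the strand are not given in the sources used here. Gene lengths and positions came from GENCODE v29. Columns of per-sample values left unused: 0.

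Counts were tested with edgeR 4.0.16 (R 4.3.3): filterByExpr, TMM factors, quasi-likelihood, two-sided, Benjamini-Hochberg over all genes tested (12796 in PC9 and 12345 in H1975, each line fitted with its 12 libraries; 13380 in a fit of all 24 for differences between the lines). This made 16 comparisons. Errors of log2 fold changes are the change divided by the square root of the F value. The procedure was tested on simulated data. Depth was 14232299 to 24245314 counts per library, so for abundant genes the spread between libraries, not counting, limits the precision.

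The 38 genes and the lists were chosen with earlier results of these data known. Named in each comparison were the inducible genes, PSMB5 to PSMB7, PSME3, PSME4, up to 4 rising and 4 falling other constitutive genes with the largest change, and up to 3 rising and 3 falling genes of a list with the smallest p; other genes named were chosen after their values were seen. Alternatives were RLE scaling, all genes without filtering, a stricter filter (a mean of 5 CPM and 1 CPM in 3 libraries or more), DESeq2 1.42.0, one fit of 24 libraries, only the groups compared, a replicate block, leaving out each library, a length and GC trend removed (spline with 5 degrees of freedom) and leaving out 4 libraries. The values of 1 gene of a list are not reported here.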

Additional observations from a re-analysis of the deposited data

Results flagged for a closer look

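16 results were singled out because a response to treatment differed between the lines by a direct test (PC9 minus H1975, edgeR on all 24 libraries, adjusted p under 0.05). Of the 38 genes, 2 responded higher and 4 lower in PC9 with almonertinib. With paclitaxel it was 0 and 3, and with the combination 0 and 7. Among all genes the shares higher and lower were 5.53% and 11.0%, 9.9% and 7.21%, and 6.99% and 11.0% in the same order. The number of calls alone thus does not set the proteasome genes apart. Line and dose cannot be told apart in these 16 results.

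With almonertinib these were PSMA3 (1.02), PSMA5 (-0.61), PSMA7 (-0.60), PSMB8 (0.67), PSMD2 (-0.71) and PSMD11 (-0.85). Behind the difference for PSMA3, an alpha ring subunit, stood a rise in PC9 (0.82 ± 0.12) and -0.21 ± 0.20 in H1975, where it was not called. PSMA3 and PSMD11 were called in each of the 24 fits that leave out 1 library, whereas PSMB8 was in 9 and PSMD2 in 8.

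With paclitaxel they were PSMA5 (-0.83), PSMA7 (-0.71) and PSMD4 (-0.65). PSMA5 held in 24 of the 24 fits, PSMA7 in 22 and PSMD4 in 23.

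With the combination they were PSMA5 (-0.76), PSMA7 (-0.96), PSMB1 (-0.60), PSMD2 (-0.80), PSMD7 (-0.42), PSMD11 (-0.93) and PSME3 (-0.64). PSMA5, PSMA7 and PSMD11 held in all 24 fits, PSMD2 in 17, PSME3 in 16, PSMB1 in 9 and PSMD7 in 5. With the length and GC trend removed the PSMB1 and PSMD7 differences were -0.21 and -0.21, and that of PSMA5 was -1.23. The differences of PSMA7 with almonertinib (-0.29) and paclitaxel (-0.29) and of PSMB1, PSMD7 and PSME3 (-0.26) with the combination were then not called.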

How the results depend on the processing

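Counts are of called genes among the 38. One fit of all 24 libraries gave 13 in PC9 with paclitaxel (23 in the report), 2 for combination against almonertinib (9) and 11 for the interaction (21), and in H1975 1 with paclitaxel, 2 with the combination, 2 for combination against paclitaxel and 1 for the interaction (each 0). With the length and GC trend removed it was 14 for PC9 combination against almonertinib; in H1975 5 with almonertinib (2), 3 with paclitaxel, 12 with the combination, 1 for combination against paclitaxel and 2 for the interaction; and 10 and 8 for the difference between the lines with almonertinib (6) and paclitaxel (3). With only the groups compared it was 4 for PC9 combination against almonertinib, and in H1975 0 with almonertinib, 9 with the combination and 4 for combination against paclitaxel. Without the 4 libraries that stood apart, an alternative chosen after seeing the data, H1975 gave 22 with almonertinib, 4 with paclitaxel, 15 with the combination, 19 and 17 for combination against almonertinib and paclitaxel and 19 for the interaction, and the lines differed in 16 with paclitaxel and 18 with the combination (7). DESeq2 gave 1 for the H1975 interaction and 7 for the line difference with paclitaxel, and RLE factors 3 for that with almonertinib. No cause of these shifts was tested. For most comparisons the share of all genes called under an alternative is not given, so the counts here and below cannot be read against it.

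Leaving out 1 library gave 20 to 28 in PC9 with almonertinib (23), 21 to 28 with paclitaxel, 22 to 29 with the combination (27), 5 to 12 for combination against almonertinib (5 without PC9 combination replicate 1), 11 to 19 against paclitaxel and 15 to 29 for the interaction. H1975 gave 0 to 6 with almonertinib, 0 to 1 with paclitaxel, 0 to 8 with the combination, 0 to 6 and 0 to 2 for combination against almonertinib and paclitaxel and 0 to 2 for the interaction. The line differences gave 2 to 9, 1 to 8 and 3 to 12, and the control level 22 to 28. The following turned direction and were called in either the main or the other fit. With the trend removed they were PSMD12 in PC9 with paclitaxel (-0.32), PSME1 in the line difference with paclitaxel (0.35), and the control levels of PSMB8 (-0.30), PSMB9 (-0.10) and PSMB10 (-0.26). Without the 4 libraries it was PSME4 in H1975 with almonertinib (0.51).

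In no pair of groups did all 3 same-numbered pairs correlate by over 0.1, so libraries were not treated as paired. That rule cannot tell whether the numbers are only names. Same-numbered pairs reached 0.113, 0.104 and 0.0675 for control and paclitaxel in PC9. They reached 0.0973, 0.156 and 0.321 for control and combination in H1975. Each of these was above the values of differently numbered pairs. With a replicate block, PC9 gave 26, 27 and 28 calls against control, 12 and 19 for combination against almonertinib and paclitaxel and 24 for the interaction. H1975 gave 2 with almonertinib, and 0 elsewhere. No scaling alternative moved the median of all genes by over 0.1 on the log2 scale. Both TMM and RLE factors hold that median near 0, so it cannot show whether the scaling was right. TMM factors ran from 0.856 to 1.15 in the PC9 fit.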
